A study of Mus musculus with 2 samples.

Results

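Ribosomal proteins of the cytosolic ribosome were examined in a map of open chromatin from cardiac progenitor cells (CPCs), as 103 of 26232 distinct ATAC-seq peaks. ATAC-seq uses the Tn5 transposase to insert adapters where DNA is accessible. The 103 peaks were those whose deposited gene symbol starts with Rpl or Rps and a digit, or is Rpsa, Rplp0, Rplp1 or Rplp2, without ribosomal protein S6 kinases and pseudogenes, which left out 17 peaks of 10 kinase symbols and 2 pseudogene symbols. They carried 71 symbols. Of these, 64 symbols with 95 peaks were genes of the standard set of 77 ribosomal protein genes, and 7 symbols with 8 peaks were not: the paralogs Rpl10l, Rpl22l1, Rpl7l1, Rps27l, Rps27rt and Rps4l, and Rps19bp1, which encodes a protein that binds Rps19 and is no ribosomal protein. No peak value was used to choose them, but a peak enters only where it was assigned to such a gene.

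The cells were derived from E14 Tg(Nkx2-5-EmGFP) embryonic stem (ES) cells, a mouse line with a green fluorescent reporter driven by Nkx2-5, labelled strain C57BL/6, and were harvested at day 5 of directed cardiac differentiation with BMP4, Activin A, VEGF, bFGF and FGF10. The single group held 2 replicates, which per the study's methods were independent differentiations, and no treatment or deletion. The Isl1 knockdown that the design mentions was not analysed here. Only 1 list, of peaks found in both replicates, was analysed, without a score or a value per replicate, so that depth was unknown, no replicate error could be given, and no test between samples was possible. The intervals given below are 95% confidence intervals for counting over genes or peaks, not for variation between cultures. A peak over the start site was listed for the cardiac progenitor genes Isl1, Nkx2-5 and Tbx5. Mef2c had a peak within 1 kb of a start but not over its 5′-most start, Gata4 had none within 1 kb and Hand2 none at all. Of 9 markers of other cell types, Zfp42, Myod1 and Neurog1 had a start-site peak, and Pou5f1, Nanog, Alb, Afp, Myog and Neurod1 had none within 1 kb.

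The cytosolic ribosome is built from a large subunit, which forms peptide bonds, and a small subunit, which reads the mRNA. Its proteins are made in equal amounts, are needed in every growing cell and are encoded by short, highly transcribed genes with many processed pseudogenes. Their mRNAs typically begin with a C followed by a run of pyrimidines, the terminal oligopyrimidine (TOP) tract through which mTOR signalling controls their translation. Loss of a single copy of several of them, Rps19, Rpl5 and Rpl11 among them, causes Diamond-Blackfan anaemia, which can include heart malformations.

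To show the DNA at the start sites, 30 bases of the mm9 sense strand are printed for 10 genes, 10 bases before the start site and 20 from it on. They comprise the 3 widest and 3 narrowest start-site peaks of standard genes, the anaemia genes Rps19, Rpl5 and Rpl11, and, chosen after their values were seen, Rpl3, Rpl13a and Rps29, which had no peak. The start was that implied by the deposited distance, or for the last 3 the 5′-most coding start of GENCODE. Capitals mark the tract, from the C nearest to the start, within 10 bp of it, that is followed by at least 4 pyrimidines.
Rpl11 (chr4:135609267-135609296, minus strand): gtctccctctCTCTTCCTgttctccaccat
Rps26 (chr10:128063543-128063572, minus strand): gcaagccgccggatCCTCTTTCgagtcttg
Rps19 (chr7:25669723-25669752, plus strand): ccacggggccgggCTTTCTggccccaagag
Rpl6 (chr5:121654500-121654529, plus strand): acCTCCCgtcattgcttatagaccggaagc
Rpl10a (chr17:28465406-28465435, plus strand): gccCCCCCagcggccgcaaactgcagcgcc
Rpl4 (chr9:64021184-64021213, plus strand): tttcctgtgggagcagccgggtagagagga
Rpl5 (chr5:108329537-108329566, plus strand): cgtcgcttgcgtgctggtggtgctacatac
Rpl3 (chr15:79913817-79913846, minus strand): tcgcacgctcagggggcggagccatcactt
Rpl13a (chr7:52391768-52391797, minus strand): ttggctgtcatccagctttggctttccaca
Rps29 (chr12:70260154-70260183, minus strand): gcggaccaatgttgtcgcacggcgtacgcg
In Rpl11 the marked tract of 8 bases began at the start by this rule. The bases just before it are also pyrimidines, so the unbroken run begins upstream of the start. The marked tract began 4 bp after the start in Rps26 and 3 bp after it in Rps19. Rpl4, Rpl5 and the 3 genes without a peak had none in the window.

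To determine how many ribosomal protein genes were marked by open chromatin, 2 measures were used. A peak was assigned by symbol to 64 of the 77 genes (83.1%, interval 73.2 to 89.9%), where 61.6% of all coding genes had an assigned peak. A peak lay over the 5′-most coding start site or within 500 bp of it in 60 of the 76 genes found in GENCODE (78.9%, 68.5 to 86.6%), against 53.5% of all 22359 coding genes. Rpl41 was not in that annotation and had no assigned peak. The large subunit had 37 of 45 genes covered (82.2%, 68.7 to 90.7%) and the small subunit 23 of 31 (74.2%, 56.8 to 86.3%), with intervals that overlapped widely.

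Ribosomal protein promoters are mostly CpG-rich, and this was also measured here. With CpG-rich set as a GC content from 50% and a CpG observed over expected ratio from 0.6 in the 500 bp on either side of the start, 67 of 76 qualified (88.2%), against 44.6% of all coding genes. Of all CpG-rich promoters, 89.4% had a start-site peak (88.8 to 90.0%), whereas 54 of the 67 CpG-rich ribosomal protein promoters did (80.6%, 69.6 to 88.3%). The share was therefore above that of all genes and below that of all CpG-rich promoters. Both pairs of intervals were apart, though for CpG-rich promoters only narrowly, with ends at 88.3 and 88.8%. Of the 9 ribosomal protein promoters that were not CpG-rich, 6 had a peak (66.7%, 35.4 to 87.9%), against 24.7% of all such promoters. Among the 6, Rpl10, Rpl23a, Rpl4 and Rps9 missed only the GC limit, with CpG ratios of 0.75, 0.63, 0.74 and 0.80. These sets were not matched in composition.

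**Figure D1:**
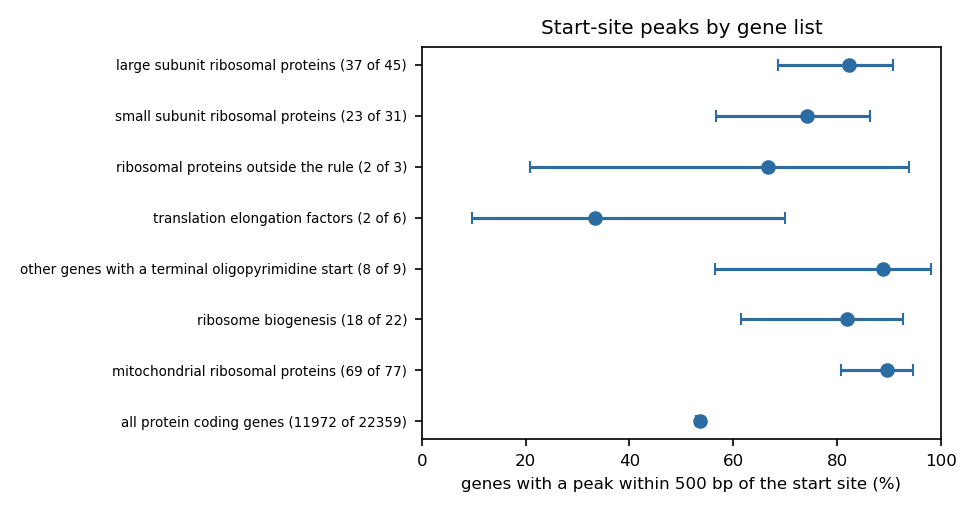
Share of genes with an ATAC-seq peak over the start site or within 500 bp of it (x axis, %) for each gene list (y axis, with the number of genes covered of those annotated). Points are shares and bars are 95% Wilson intervals. Ribosomal proteins of both subunits lie above the 53.5% of all coding genes, and translation elongation factors have the lowest share, 2 of 6.

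The 16 genes without a peak at the 5′-most start included central parts of the ribosome. In the large subunit these were Rpl3, a protein close to the peptidyl transferase centre, Rpl8, Rpl13a, which is also known outside the ribosome as a regulator of inflammatory mRNAs, Rpl15, Rpl19, Rpl32, Rpl35a and Rpl36. In the small subunit they included Rps2, Rps10, Rps18, Rps21, Rps23, which lies in the decoding centre, and Rps29. Rps2 and Rps10 had a peak at another annotated start, 1376 and 1265 bp wide, with midpoints 20 and 29 bp after the start that the list uses. This left 14 genes, 8 of the large and 6 of the small subunit, with no peak at any annotated coding start. In the comparisons below, covered and uncovered refer to the 5′-most start, so that Rps2 and Rps10 count as uncovered. Their windows lie at that start and not at the start with the peak.

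These 14 genes were not alike in how far away the nearest peak lay. The gap from the start to the nearest peak edge ran from 1201 bp at Rpl13a to 36312 bp at Rps23, with a median of 5253 bp, and 8 of the 14 gaps were over 5 kb. The gap was 31302 bp at Rpl15, 5857 bp at Rpl3 and 8951 bp at Rps29. In 12 of the 14 the nearest peak carried the symbol of another gene. Gaps and symbols were not counted over other coding genes without a start-site peak, so these values describe the 14 genes only. The start of Rpl36 had a gap of 2753 bp and that of Rpl8 a gap of 3821 bp.

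Base composition did not separate covered from uncovered genes. The median GC content around the start was 57.0% (56.4 to 59.0%) in the 60 covered genes and 56.4% (54.2 to 58.6%) in the 16 others, and the CpG observed over expected ratio was 0.82 (0.75 to 0.85) and 0.78 (0.74 to 0.86). Of the 14 genes with no peak at any start, 13 had a CpG-rich promoter. Because ribosomal protein genes have many near copies, the share of 32-base words around the start that recur elsewhere in the genome was counted, after the other values had been seen. Repeated words made up 4.92% of the windows without a peak and 7.30% of those with one. Rps29, with 40.7%, had the highest share among the genes without a peak, followed by Rpl36 with 13.0%. The part of repeated sequence in the missing peaks was not tested.

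Several ribosomal protein genes share their open start site with a neighbour, at shares near those of all covered coding genes. Of the 60 peaks over a start site, 53 carried the gene's own symbol and 7 (11.7%, 5.77 to 22.2%) that of another gene, as did 13.0% over all coding genes. The peak at Rpl7 was assigned to Rdh10, a retinol dehydrogenase gene, and at 2459 bp was wider than any start-site peak assigned to a ribosomal protein symbol. The peak at Rpl7a was assigned to Med22, a Mediator subunit, that at Rpl9 to Lias, a lipoic acid synthase, and that at Rps25 to Trappc4, a vesicle tethering factor. The peaks at Rps28 and Rps27 were assigned to Ndufa7 and Rps27rt. The 5′-most start of Rpl18 lay in a peak assigned to Sphk2, a sphingosine kinase, and a separate peak of 1194 bp was assigned to Rpl18 itself. Another annotated start lay in 14 of the 60 peaks (23.3%, 14.4 to 35.4%), against 25.4% of all covered coding genes. A coding gene started in the opposite direction within 1 kb of 11 of the 76 genes (14.5%, 8.28 to 24.1%), against 8.65% of all coding genes, and 8 of those 11 had a start-site peak (72.7%, 43.4 to 90.3%), against 86.3% of all such coding genes.

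Many ribosomal protein genes carry small nucleolar RNAs (snoRNAs), guides for the modification of ribosomal RNA, in their introns. Here 30 of the 76 genes (39.5%) contained 59 annotated snoRNAs, against 2.09% of all coding genes with at least 1. A start-site peak was found in 25 of the 30 host genes and in 35 of the 46 others. In 5 of the 60 start-site peaks (8.33%, 3.61 to 18.1%) a snoRNA lay within the peak, among them those at Rpl17, Rpl23a, Rpl7a and Rps20, against 0.109% of all covered coding genes. Ribosomal protein genes were also short, with a median length of 3226.5 bp against 15121 bp over all coding genes. The start-site peak took up a median of 17.7% of the gene body (14.8 to 20.4%), against 3.03% over all covered coding genes.

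Next, the position and shape of the start-site peaks were analysed. Of the 103 peaks, 62 (60.2%, 50.5 to 69.1%) were centred at most 1 kb from the start the list uses, against 44.9% of all peaks. All 62 covered that start, which was not counted over all start-site peaks, and each belonged to a different symbol. Their median width was 1169 bp (1100 to 1230 bp), with quartiles of 1053.5 and 1303.25 bp. The 11772 start-site peaks of all genes had a median of 1326 bp (1317 to 1338 bp), and those at CpG-rich promoters 1416 bp (1404 to 1427 bp). Ribosomal protein peaks were thus narrower than both, with intervals that did not meet.

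The widths also fell in a tight range. Of the 62 peaks, 49 were narrower than the overall median, and 19 lay below the overall lower quartile of 1072 bp. Of the 62, only Rpl10a and Rps19 exceeded the overall upper quartile of 1691.25 bp. The 34 large subunit peaks had a median width of 1200 bp (1101 to 1298 bp), the 22 small subunit peaks 1096.5 bp (983 to 1238 bp) and the 6 of other symbols 1170 bp (1008 to 1459 bp), and these intervals overlapped.

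The narrowest peak, 678 bp, was at Rpl6, followed by Rpl11 with 832 bp, Rps26, a protein at the exit of the mRNA channel, with 856 bp, Rps4x, an X-linked protein of the small subunit, with 860 bp, and Rpl23 with 886 bp. The widest was that of Rpl10a with 1863 bp, followed by Rps19 with 1798 bp, Rpl4, a protein that lines the exit tunnel of the nascent peptide, with 1524 bp, Rpl22 with 1479 bp and Rps27l with 1459 bp. The anaemia genes lay at both ends and in the middle. Rps19 had the second widest peak, Rpl11 the second narrowest, and Rpl5, which with Rpl11 carries 5S ribosomal RNA into the ribosome, a peak of 1135 bp near the median. The stalk proteins Rplp0, Rplp1 and Rplp2, which recruit translation factors, had peaks of 1318, 1206 and 1255 bp.

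**Figure D2:**
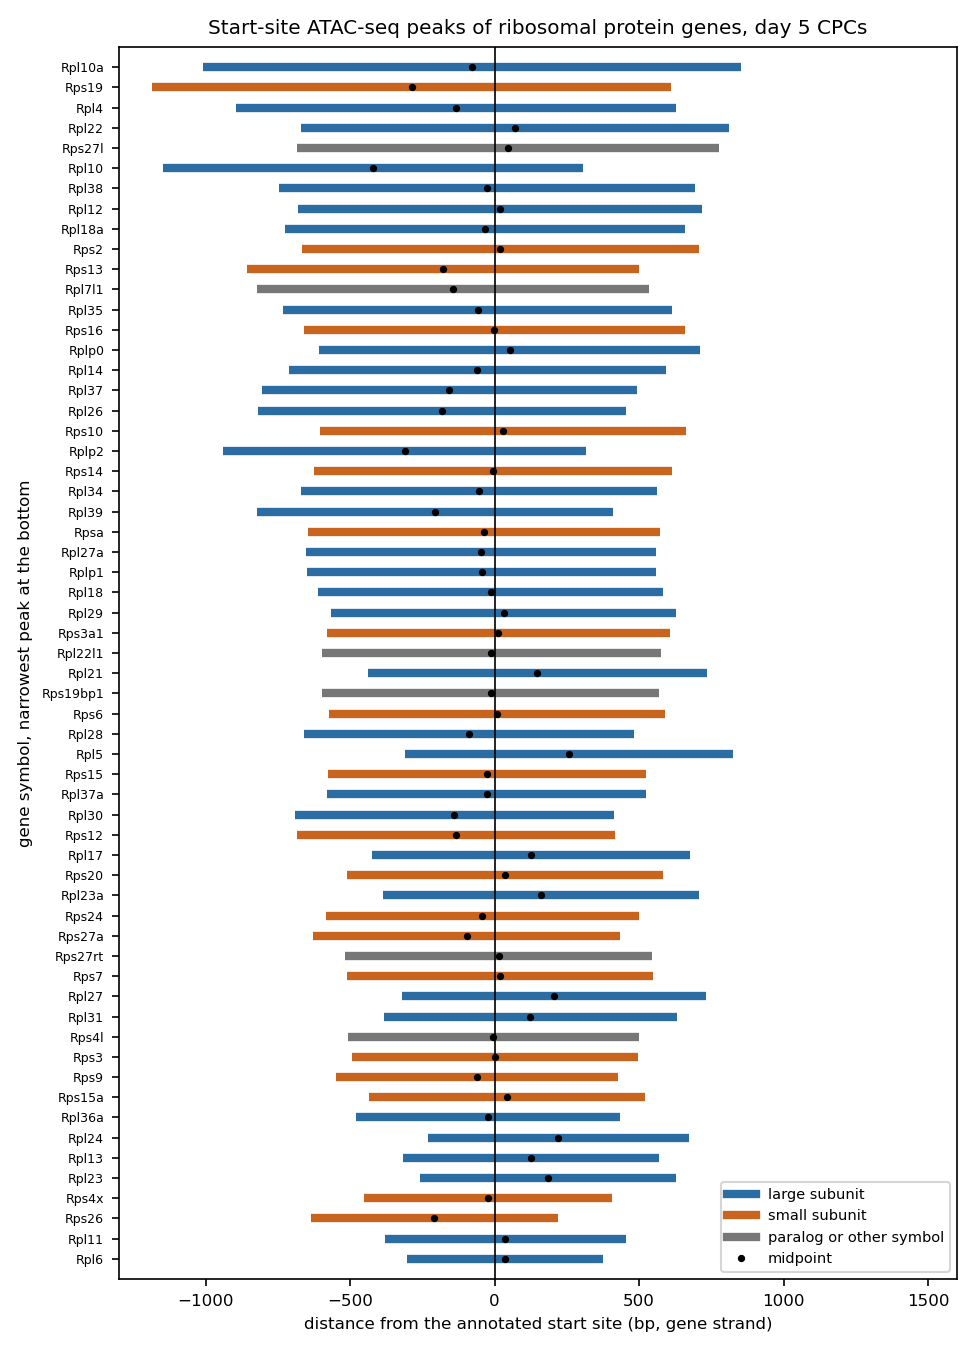
Extent of 60 of the 62 start-site peaks of ribosomal protein symbols (bars, coloured by subunit) relative to the start site in the list (x axis, bp along the gene's strand), sorted by width (y axis, gene symbols), with midpoints as black points. Each bar is 1 peak shared by both replicates and has no error; all bars cross 0, and widths run from 678 to 1863 bp.

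The peaks of ribosomal protein genes were centred on the start site rather than after it. Their median midpoint was at -13.5 bp (-42 to 13 bp, negative values being upstream), against 61 bp (57 to 66 bp) for all start-site peaks. The midpoint lay downstream of the start in 26 of 62 peaks (41.9%, 30.5 to 54.3%), while 64.3% of all start-site peaks had their midpoint downstream. In 41 of 62 (66.1%, 53.7 to 76.7%) it lay within 100 bp of the start, against 41.5% of all. The large and the small subunit had medians of -25 bp (-59 to 52 bp) and -14 bp (-87 to 13 bp).

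Against all start-site peaks, which were wider, the difference in reach lay on the gene side of the start. Upstream, the ribosomal protein peaks reached a median of 605.25 bp (565.5 to 659 bp) and all start-site peaks 596.5 bp (591.5 to 602 bp). Downstream they reached 569.25 bp (522.5 to 612 bp) and 716 bp (710 to 722.5 bp). Further comparisons were added after these values were seen. The midpoint was downstream in 64.8% (63.1 to 66.5%) of the 2899 start-site peaks whose width lay between the quartiles of the ribosomal protein peaks. It was downstream in 65.7% of start-site peaks at CpG-rich promoters. The median midpoint of the 2899 was 47 bp (40 to 53 bp). Reach was not measured for them, so the side on which the ribosomal protein peaks differ from peaks of like width is not shown. Measured from the nearest GENCODE start of the same gene, the midpoint was downstream in 30 of 60 ribosomal protein peaks (50.0%, 37.7 to 62.3%) and in 62.3% of all, so that on this scale the intervals overlapped (61.4 to 63.2% for all).

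Repeated 32-base words were more frequent on the gene side of the start. In covered ribosomal protein genes 10.3% of the 32-base words in the 500 bp downstream recurred in the genome and 4.31% of those upstream, against 4.14% and 3.32% over all covered coding genes. Of the 56 peaks of standard genes, the 26 with at most 5% repeated words downstream reached 566.5 bp downstream (453 to 613.5 bp), and the 30 others 575.5 bp (522.5 to 659 bp). These intervals overlapped, and a part of repeated sequence in the short downstream reach was not tested.

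**Figure D3:**
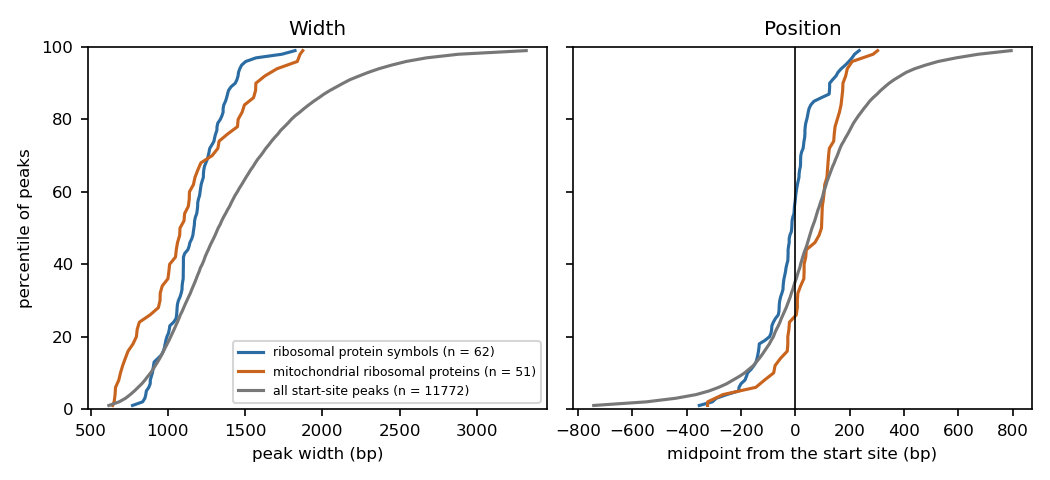
Percentiles (y axis) of peak width (left, bp) and of the midpoint relative to the start site (right, bp, negative upstream) for start-site peaks of ribosomal protein symbols, mitochondrial ribosomal proteins and all genes. Ribosomal protein peaks have few wide members and their median midpoint is at -13.5 bp, against 61 bp for all peaks.

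By the start that the list uses, individual genes departed from this centring in both directions. The peaks of Rpl10, Rplp2 and Rps19 lay farthest upstream, with midpoints at -421, -311 and -287 bp. That of Rps19 was measured from a start at chr7:25669733, and GENCODE also places a start of this gene at chr7:25669390, inside the peak. The 5′-most GENCODE start of Rplp2, at chr7:148633269, lies inside its peak as well. From these GENCODE starts the midpoint is nearer to the start in both genes, and downstream of it in Rps19. The peaks of Rpl5, Rpl24 and Rpl27 lay farthest downstream, at 256, 221 and 206 bp. All 22 small subunit midpoints lay between -287 and 43 bp, whereas the 34 of the large subunit spread from -421 to 256 bp. Across the 62 peaks, which come from the same list, Spearman's rho between width and midpoint was -0.34, against 0.10 over all start-site peaks.

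The DNA in ribosomal protein peaks was rich in CpG for its GC content. The median GC content was 57.0% (55.8 to 57.8%) against 58.6% (58.5 to 58.7%) in all start-site peaks, while the CpG observed over expected ratio was 0.79 (0.75 to 0.84) against 0.68 (0.68 to 0.69). Width rose with GC content over all start-site peaks, with a rho of 0.33, and over the 62 the rho was 0.10. No interval was computed for either rho, so a difference between them is not shown.

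To compare these genes with others that act in translation, the same measures were taken from related lists. Mitochondrial ribosomal proteins, which form the separate ribosome inside mitochondria, had a start-site peak in 69 of 77 genes (89.6%, 80.8 to 94.6%). The 51 peaks that carried such a symbol were also narrow, with a median of 1079 bp (1001 to 1176 bp), but were not centred alike. Their midpoint lay at a median of 96 bp (31 to 116 bp) and downstream in 38 of 51 (74.5%, 61.1 to 84.5%), against 24 of 56 (42.9%, 30.8 to 55.9%) in standard cytosolic genes. They reached less far upstream, 491 bp (409.5 to 535.5 bp) against 608.5 bp (565.5 to 659 bp), while the downstream intervals overlapped, 579 bp (541.5 to 649 bp) against 570.5 bp (521.5 to 613.5 bp). Against all start-site peaks, the downstream reach was short in both sets, and the upstream reach only in the mitochondrial set.

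Among ribosomal proteins that the symbol rule did not take, Gnb2l1, the small subunit scaffold listed as Rack1, had a start-site peak of 1265 bp with its midpoint at -214 bp. Fau, a ubiquitin-like fusion with a small subunit protein, had none, and its nearest peak lay 2745 bp away. Of 9 other genes with TOP mRNAs, 8 had a start-site peak, with Pabpc1, the poly(A) binding protein, at 2537 bp the widest, and Hnrnpa1 had none. Ribosome biogenesis genes had one in 18 of 22, without Nop10, Pes1, Polr1a and Ubtf. Of 6 translation elongation factor genes, Eef1b2 and Eef1g had a start-site peak and Eef1a1, Eef1a2, Eef1d and Eef2 did not. At Eef1a1 and Eef2 the nearest peak lay 6396 and 7099 bp from the start.

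Next, the start sites were searched for TOP tracts. A C within 10 bp of the 5′-most GENCODE start with at least 4 pyrimidines after it was found in 28 of 76 ribosomal protein genes (36.8%, 26.9 to 48.0%) and in 30.8% of all coding genes, a difference within the counting error. With at least 6 pyrimidines after the C at the same starts, 18 of 76 had the tract (23.7%, 15.5 to 34.4%) against 12.2% (11.7 to 12.6%), with intervals apart. The share also depended on which start was taken. At the start implied by the deposited distance, a choice made after the data were seen, 29 of 56 genes had the tract (51.8%, 39.0 to 64.3%) against 31.1% of all, and within 3 bp 17 of 56 (30.4%, 19.9 to 43.3%) against 11.9%. At the starts of the RefSeq promoter table of the later build GRCm38.p6, in which 57 of the genes were found, 32 had it (56.1%, 43.3 to 68.2%) against 31.1%. By the GENCODE start, covered and uncovered genes were alike, with 22 of 60 (36.7%) and 6 of 16 (37.5%).

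Short motifs were counted in the 500 bp on either side of the start on both strands. TCGCGA, a palindrome, was present in 27 of 76 ribosomal protein promoters (35.5%, 25.7 to 46.7%), against 7.77% of all coding promoters and 14.7% of CpG-rich ones. CCGGAAG, a core of ETS factor sites, was present in 36 (47.4%, 36.5 to 58.4%), against 19.1% and 31.0%. ATGGCG, found in sites of the factor YY1 and also a start codon followed by GCG, was present in 50 (65.8%, 54.6 to 75.5%), against 28.1% and 43.0%. GGGCGG, the GC box of Sp factors, was present in 68 (89.5%, 80.6 to 94.6%), above the 60.2% of all promoters but not above the 93.3% of CpG-rich ones. CCAAT was present in 65.8% against 70.4% of all and 63.9% of CpG-rich promoters, and TATAAA in 22.4% against 31.996% and 16.99%, so that for these the sign of the difference turned with the comparison. No motif contains another, and a match is a description of the letters only.

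The motifs were also counted inside the peaks. Of the 62 start-site peaks, 22 (35.5%, 24.7 to 47.9%) held TCGCGA, against 14.4% of all start-site peaks and 12.7% of those of like width. CCGGAAG was held by 30 (48.4%, 36.4 to 60.6%) against 31.97% and 32.8%, and ATGGCG by 44 (71.0%, 58.7 to 80.8%) against 43.1% and 38.9%. GGGCGG was held by 87.1% against 89.9%. Of the 60 standard genes with a peak at the start, 24 had TCGCGA, and in all 24 the copy nearest to the start lay within the peak. Only the 500 bp on either side were searched, and most of that window lies inside such peaks. This count was therefore largely set in advance. In 15 of the 24 the nearest copy lay within 100 bp of the start, and 12 of the 24 copies were upstream. Among the 16 genes without a peak at the 5′-most start, 3 had the motif (18.8%, 6.59 to 43.0%), an interval that overlaps the 40.0% of covered genes (28.6 to 52.6%). The other motifs did not follow this order throughout. CCGGAAG was present in 10 of 16 uncovered genes (62.5%, 38.6 to 81.5%) and 26 of 60 covered genes (43.3%, 31.6 to 55.9%), CCAAT in 14 (87.5%, 64.0 to 96.5%) and 36 (60.0%, 47.4 to 71.4%), and GGGCGG in 15 (93.8%) and 53 (88.3%). ATGGCG was present in 8 (50.0%) and 42 (70.0%) and TATAAA in 2 (12.5%) and 15 (25.0%), and for each motif the intervals of covered and uncovered genes overlapped.

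The 6 copies nearest to the start are printed on the sense strand of mm9 with 12 bases on either side, to show how this motif, the one whose share stood highest relative to all promoters, sits at the start sites, and it was chosen after the counts were seen. Capitals mark TCGCGA.
Rps28 (chr17:33961489-33961518, minus strand): ccgcgtgcggtcTCGCGAgagcgaaagtga
Rps15 (chr10:79755160-79755189, plus strand): tcccggcagagcTCGCGAtaactgcgcaag
Rps6 (chr4:86503303-86503332, minus strand): cgccggctgttcTCGCGAgaacttagagcg
Rpl7a (chr2:26766265-26766294, plus strand): gggcgcctgctcTCGCGAtatctgcggcca
Rps3a (chr3:85946599-85946628, minus strand): cgccagctagtgTCGCGAgattcttaaagc
Rps15a (chr7:125259708-125259737, minus strand): gaccatgaagtcTCGCGAtagcgcttccgc
Counted from the start base, the first base of the motif was at 1 in Rps28, -4 in Rps15 and Rps6, -7 in Rpl7a, 8 in Rps3a and -25 in Rps15a. Rps6, the protein phosphorylated by S6 kinases, had its motif in a peak of 1161 bp centred 8 bp after the start, and Rps3a a motif in a peak of 1188 bp centred 13 bp after it. The 1102 bp peak of Rps15 was centred at -27 bp and the 957 bp peak of Rps15a at 43 bp.

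Finally, peaks away from the start were considered. Most ribosomal protein symbols had 1 peak: 55 of 71 had 1, 9 had 2 and 7 had 3 or more. More than 1 peak was found for 16 of 71 (22.5%, 14.4 to 33.5%), against 39.2% of all 15351 symbols with a peak, and the mean was 1.45 against 1.71 peaks. The 41 peaks beyond 1 kb lay upstream in 16 and downstream in 25 cases. Of these, 9 lay 1 to 10 kb, 17 lay 10 to 50 kb, 3 lay 50 to 100 kb and 12 more than 100 kb from the start. Their median width was 895 bp (806 to 991 bp), like the 911 bp of all distal peaks. By midpoint, 32 were intergenic, 7 intronic, 1 lay in a coding exon and 1 in another exon. Side, distance class and location were not counted over the 14460 distal peaks of all genes. These counts therefore describe the 41 peaks only, many of which belong to Rps24.

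The largest number of distal peaks belonged to a single gene. Rps24, a small subunit protein and another anaemia gene, had 10 peaks, of which 9 lay downstream and between genes, from 10024 to 316758 bp from its start and 656 to 1107 bp wide. Its start-site peak of 1081 bp was centred at -42 bp. Rps14 had 4 peaks. They were all upstream, at -27209, -12871 and -7280 bp beside the start-site peak at -5 bp, and the farthest was 1837 bp wide and inside an intron of Ndst1.

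Rpl29, Rpl34, Rplp1 and Rps15a had 3 peaks each. The distal peaks of Rpl29 lay at -24028 and -7724 bp and those of Rpl34 at -170356 and -148990 bp, all upstream. Those of Rplp1 lay at 38648 and 191890 bp and those of Rps15a at 12938 and 144674 bp, all downstream, and the nearer peak of Rps15a was 2471 bp wide. Among symbols with 2 peaks, the distal peak lay at -17992 bp for Rpl11, 7762 bp for Rpl37a, -28620 bp for Rpl38, 5852 bp for Rps19, 17820 bp for Rps20, -55763 bp for Rps27a, a fusion with ubiquitin, -16758 bp for Rps3 and 19031 bp for Rps4l. Rps29 had only distal peaks, at 28955 and 751940 bp, the latter the farthest of all 103.

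**Figure D4:**
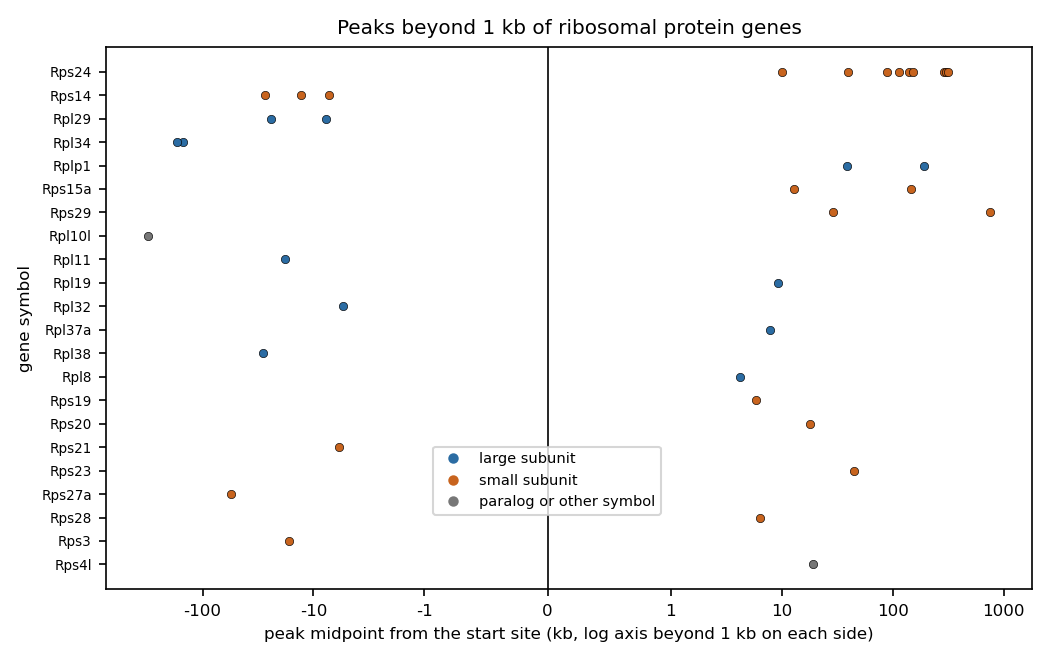
Position of 37 of the 41 peaks beyond 1 kb (points, coloured by subunit) relative to the start of the assigned ribosomal protein gene (x axis, kb, log scale beyond 1 kb on each side, negative upstream), with genes sorted by number of such peaks (y axis). Rps24 has 9, all downstream, and 14 of the 22 symbols drawn also have a start-site peak assigned to the same symbol, which is not drawn.

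By assigned symbol, 9 symbols had distal peaks only and 15 had both kinds, a split that was not made over all symbols. Rps28, among the 9, had its start in the peak assigned to Ndufa7. The single peaks of Rpl19, Rpl32 and Rpl8 lay at 9226, -5425 and 4182 bp, those of Rps21 and Rps23 at -5880 and 44643 bp. The widest distal peak, 2608 bp, was assigned to Rps28 at 6337 bp and lay over a coding exon of Kank3, whose own start was nearer, at 1976 bp. The peak of Rpl10l, an intronless copy of Rpl10 active in testis, lay at -307656 bp in an intron of Mdga2, so that no peak was at this paralog itself. Rpl22l1, Rpl7l1, Rps19bp1, Rps27l, Rps27rt and Rps4l each had a start-site peak, 1174, 1358, 1166, 1459, 1060 and 1008 bp wide. The peak assigned to Rps27rt was the same interval as the peak over the start of the standard gene Rps27. Assignment to the nearest start gives no measure of which gene a distal peak acts on.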

How the data were processed

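ATAC-seq was performed on 2 replicates of day 5 CPCs. Per the study's methods, the authors mapped reads to mm9 with Bowtie2, filtered with SAMtools, removed duplicates with Picard 1.136, called peaks with MACS, dropped blacklisted regions and kept peaks that overlapped by at least 1 bp between replicates (bedtools 2.15). The deposited list gives interval bounds and a signed distance to a start site, in bp, with an accession and a symbol. Depth per sample is unknown. The authors' width and distance follow the peak caller and depth as well as the chromatin.

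Intervals were read with Python 3.11.15, and positions are 1-based on mm9 (NCBIM37, GENCODE vM1). Repeated lines were counted once. Shares have Wilson and medians order-statistic 95% intervals, and the code was tested on simulated data. Named genes were those without a start-site peak, the 5 widest and 5 narrowest start-site peaks, all distal peaks, all genes with 2 or more peaks, non-standard symbols and the anaemia genes. The members and gene lists were chosen with earlier results of these data known. Starts implied by distances were calibrated to GENCODE. A few genes are not reported here by name, though counts include them.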

Additional observations from a re-analysis of the deposited data

How the results depend on the processing

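Of 59 alternatives to 16 results, 42 moved the value by less than its counting error, 14 by more and 3 turned its sign, and 3 of the 59 were added after the data were seen. Peaks wider than the median of all peaks alone gave a start-site peak in 52.6% of ribosomal protein genes and 41.1% of all coding genes, an assigned peak in 57.1%, 77.8% of member peaks within 1 kb and 5 genes with more than 1 peak. The difference in median width to other start-site peaks went from -157 to -247 bp against CpG-rich promoters, that in midpoint from -74.5 to -45 bp with GENCODE starts, and that in GC content from -1.57 to -2.80 percentage points in a fixed window. The difference in the share with a pyrimidine tract rose from 6.04 to 25.0 percentage points with RefSeq starts and to 20.7 with implied starts. In the window from 250 bp before to 50 bp after the start, the difference in motif share was 3.41 points for GGGCGG, 14.4 for ATGGCG and 16.5 for TCGCGA. Against CpG-rich promoters it was 16.3 for CCGGAAG and 22.8 for ATGGCG, and it turned to -3.80 for GGGCGG, 1.94 for CCAAT and 5.38 for TATAAA. The cause was not tested.

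No paired analysis was possible because the series holds a single group and the list has no value for a single replicate and neither replicate was left out. A gene without a peak is not shown to be closed, since peaks of 1 replicate alone are not in the list, the list as analysed is not known to be complete, and depth is unknown. Widths and edges are those of 1 caller and, per overlap, of 1 replicate. Counting intervals treat neighbouring genes as independent.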
